A study of Homo sapiens with 8 samples.

Results

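U2OS cells overexpressing MYC were compared directly with U2OS cells carrying Zab, the pair of single-factor states of a 4-group design. U2OS is an established human osteosarcoma cell line. The comparison uses 4 of the 8 RNA-seq libraries, chosen by their labels: 2 with the genotype MYC O/E, called MYC here, and 2 with the genotype Zab. The other 2 groups, Zab + MYC O/E (called Zab+MYC) and WT, have 2 libraries each and are used to place the values and to estimate the spread. The design text writes the factor as Zαβ, a name used for the paired Z-nucleic-acid-binding domains at the N-terminal end of the RNA-editing enzyme ADAR1. The labels describe neither the construct, nor its promoter or vector, nor the time of harvest, nor whether a line is a clone or a pool. All 8 libraries share the cell line, Trizol extraction and 1 library kit.

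MYC is a transcription factor that binds E-box sequences as a dimer with MAX and is known for raising ribosome production, translation, chaperones and nucleotide and polyamine synthesis, and for lowering matrix, adhesion and growth-arrest genes. Z-nucleic acids are left-handed double helices of DNA or RNA. They are bound by ADAR1, which edits double-stranded RNA and limits its detection, and by ZBP1, which starts innate immune signalling and necroptosis. Double-stranded RNA is detected by RIG-I-like receptors, PKR and the OAS enzymes. Signalling from RIG-I-like receptors leads to type I interferon. STAT and IRF factors, STAT2 and IRF9 among them, then switch on interferon-stimulated genes.

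The promoters of both responses carry known short motifs, shown here because ribosome biogenesis and interferon-stimulated genes had the highest and the lowest median log2 difference of the gene lists with 8 or more tested members. The windows are 120 bases long and come from RefSeq promoters of the build GRCh38.p14, written 5′ to 3′ on the gene's strand. In the first 4, from interferon-stimulated genes that were lower in MYC cells, capitals mark the paired GAAA motif, that is GAAA, any NN, then GAAA, on either strand. This is the core of the element bound by interferon-activated factors.
ISG15, chr1:1013329-1013448, strand +: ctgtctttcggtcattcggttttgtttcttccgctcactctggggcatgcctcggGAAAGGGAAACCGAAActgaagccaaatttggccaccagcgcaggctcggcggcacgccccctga
IFIT1, chr10:89392452-89392571, strand +: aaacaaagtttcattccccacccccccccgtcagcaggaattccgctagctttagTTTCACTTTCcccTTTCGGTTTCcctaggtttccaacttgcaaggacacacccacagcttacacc
IFI6, chr1:27672284-27672403, strand -: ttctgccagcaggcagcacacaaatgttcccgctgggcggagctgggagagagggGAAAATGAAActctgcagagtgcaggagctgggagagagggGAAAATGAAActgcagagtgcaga
OAS3, chr12:112938276-112938395, strand +: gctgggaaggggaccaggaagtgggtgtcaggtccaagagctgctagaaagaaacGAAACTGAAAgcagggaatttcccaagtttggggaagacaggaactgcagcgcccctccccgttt
In the next 4, from nucleolar, ribosome assembly and chaperonin genes that were higher in MYC cells, capitals mark the E-box CACGTG, which reads the same on both strands.
RRP9, chr3:51941855-51941974, strand -: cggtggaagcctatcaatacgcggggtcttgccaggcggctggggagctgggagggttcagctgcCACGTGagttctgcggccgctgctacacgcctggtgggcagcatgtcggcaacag
HSPD1, chr2:197500300-197500419, strand -: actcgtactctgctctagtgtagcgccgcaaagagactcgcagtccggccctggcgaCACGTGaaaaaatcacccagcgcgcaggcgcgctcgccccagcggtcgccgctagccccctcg
EBNA1BP2, chr1:43172701-43172820, strand -: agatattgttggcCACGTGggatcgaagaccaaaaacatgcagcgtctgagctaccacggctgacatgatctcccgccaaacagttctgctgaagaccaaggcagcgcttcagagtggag
MRTO4, chr1:19251735-19251854, strand +: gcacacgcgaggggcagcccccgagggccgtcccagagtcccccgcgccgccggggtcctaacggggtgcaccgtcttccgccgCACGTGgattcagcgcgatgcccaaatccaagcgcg
The 2 motifs share no letters that could make one count as the other. Paired GAAA stood in 20 of the 33 tested interferon-stimulated genes with a RefSeq promoter (60.6%), against 2.54% of the promoters of all tested genes and 3.65% of all 27305 promoters of the table, each 300 bases long. The E-box stood in 18 of 44 MYC core targets (40.9%) and in 25 of 69 ribosome biogenesis genes (36.2%), against 10.8% of tested genes and 7.43% of all promoters. Among all genes at least 2-fold higher in MYC cells, 14.6% of 631 promoters held the E-box, 3.17% paired GAAA and 32.8% a CCAAT box (CCAAT on either strand), against 36.8% of tested genes for the last. Most members differed with and without the motif. Of ribosome biogenesis genes, 21 of 25 with an E-box and 41 of 44 without one were higher in MYC cells, and of interferon-stimulated genes, 19 of 20 with paired GAAA and 10 of 13 without it were lower.

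Exon tags, the reads or read pairs counted in exons of coding genes, numbered 1119460 and 1326170 in the MYC libraries and 686992 and 805346 in the Zab libraries, and 711206 to 1037220 in the other 4. The share of tags that fell in such exons was 76.1% and 75.9% in MYC cells, against 60.6% and 60.9% in Zab cells. The sum of the authors' deposited values was 1.49-fold higher in MYC than in Zab cells. An exact two-sided permutation test of 2 against 2 gave p = 0.333 for each, the smallest p this design allows. The 2 libraries of a group differed by no more than counting noise. A chi-square test over 8514 to 8927 genes gave 0.999 to 1.02 per degree of freedom in the 4 groups (p from 0.0771 to 0.534). Nothing says that they came from separate cultures, and they may be 1 library sequenced more than once, so p-values here compare these libraries and not independent cultures of the 2 genotypes. Values are therefore given per library. The lane, day and exon share of a group cannot be told apart from its genotype.

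Expression is given in CPM, counts per 1000000 tags after TMM scaling, and differences as MYC minus Zab on the log2(CPM + 2) scale with the standard error of the fit. A gene was called when limma's two-sided Benjamini-Hochberg adjusted p was under 0.05. Of 19414 genes in the deposited tables, 9673 passed the filter on low values and were tested.

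MYC and Zab cells differed across the transcriptome. Of the 9673 tested genes, 4926 were called (50.9%), 2331 higher in MYC cells (24.1%) and 2595 lower (26.8%). At least 2-fold differences were called for 2219 genes (22.9%), 768 higher in MYC cells (7.94%) and 1451 lower (15.0%). On the authors' deposited scale the split was 4427 higher and 1352 lower, because that scale moves the median log2 difference of all tested genes to 0.42, against -0.03 with TMM. Directions below are relative to the TMM median. The 2 groups did not overlap for 7295 genes, 3546 higher and 3749 lower in MYC cells, which is 75.4% of those tested. The extremes were uneven with TMM scaling. Differences of at least 8-fold were called for 5 genes higher and 45 genes lower in MYC cells. These counts were not made on the deposited scale, where genes cross the 8-fold limit in both directions. There KLHL21 had a log2 difference of 3.31, against 2.89 with TMM, and TP53I3 one of -2.64, against -3.09. DESeq2 on the recovered tags called fewer genes, 3107, and edgeR called 5045.

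**Figure D1:**
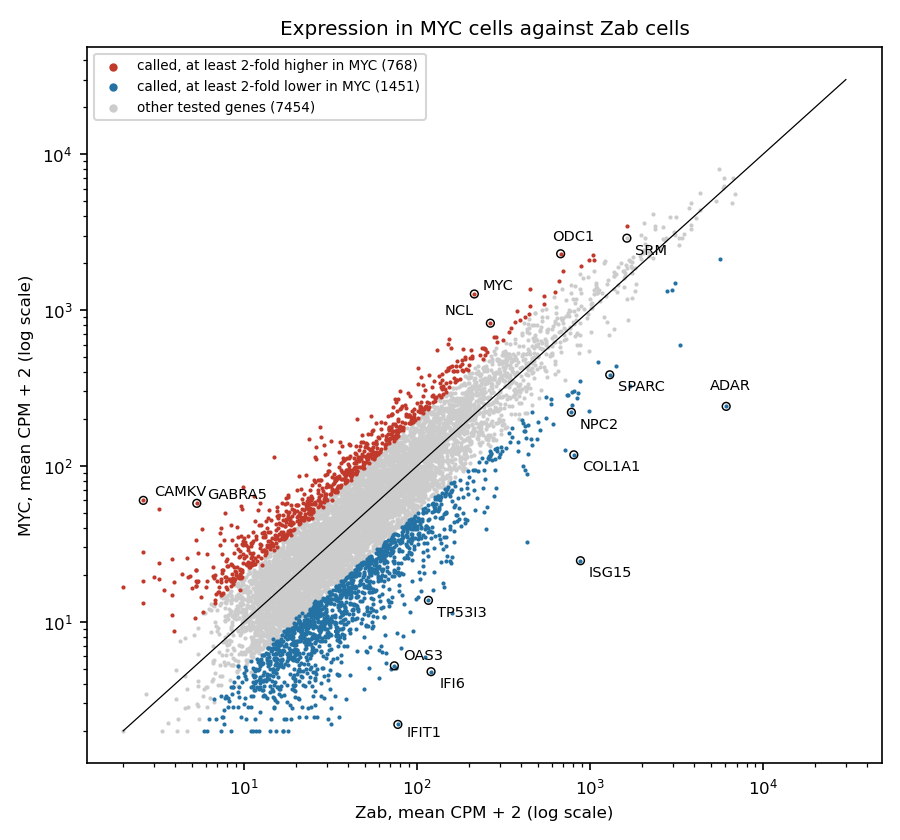
Mean CPM + 2 of each of the 9673 tested genes in MYC cells (vertical axis, log scale) against Zab cells (horizontal axis, log scale), with the line of equal level. Red points are the 768 genes called at least 2-fold higher in MYC cells and blue points the 1451 called at least 2-fold lower, and ADAR and ISG15 lie farthest below the line among the highly expressed genes.

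MYC itself had 1237 and 1290.0 CPM in MYC cells, against 229.5 and 194 CPM in Zab cells (log2 difference 2.57 ± 0.09, adjusted p = 1.36e-37), a 5.94-fold difference. Its level was 707 and 705 CPM in Zab+MYC cells and 72.5 and 94.8 CPM in WT cells, so that Zab cells were not at the WT level. ADAR, the gene of ADAR1, had 247 and 230.4 CPM in MYC cells, against 6003 and 6198 CPM in Zab cells (log2 difference -4.67 ± 0.06, adjusted p = 3.71e-67), a 25.4-fold difference in the other direction. It lies on chromosome 1, 154554534 to 154578729, minus strand (hg19). Its level was 1068 and 1019 CPM in Zab+MYC cells and 264 and 269.6 CPM in WT cells. Both genes thus marked the group named for them. Introduced and endogenous MYC are not separated in the values, nor are Zab and endogenous ADAR. The transcript on which MYC was counted, and that on which ADAR was counted, was not the same in all 4 libraries, and its part in these differences was not tested. The same holds for other genes named below, among them CAMKV, EPHA8, GABRA5, IFIT1, IFI6 and OAS2. For TP53I3, SLC16A1, TGFB1I1 and TOP1MT, both MYC libraries were counted on the same transcript and both Zab libraries on another. For these genes the transcript counted cannot be told apart from the genotype.

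**Figure D2:**
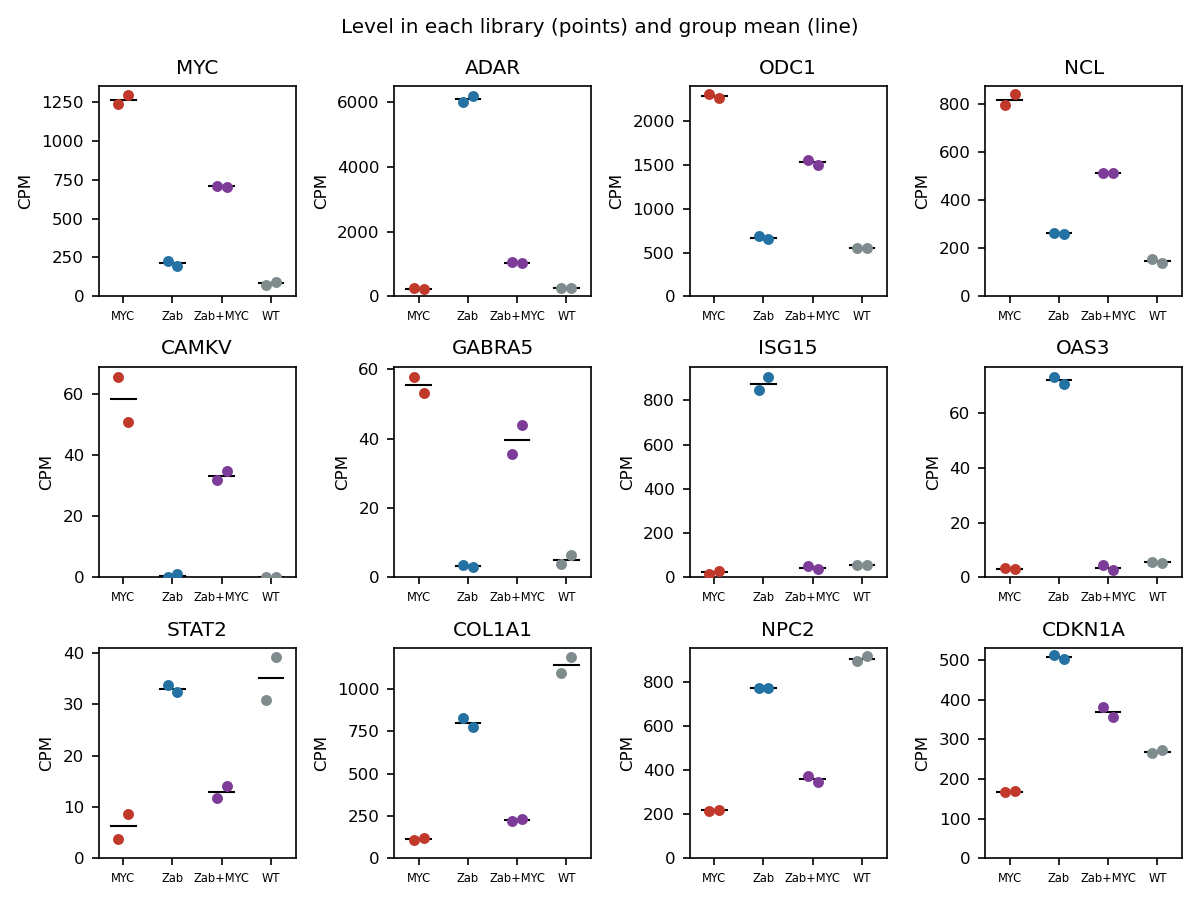
CPM of 12 genes in each library (points) with the mean of each group (line), in the order MYC, Zab, Zab+MYC and WT, on linear axes that start at 0. ISG15 and OAS3 were high in Zab cells alone among the 4 groups, while COL1A1 and NPC2 were lowest in MYC cells and highest in WT cells.

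Single genes with the largest differences were of distinct kinds in the 2 directions. Higher in MYC cells were genes at low levels in Zab cells. CAMKV, a vesicle-associated protein related to CaM kinases (chromosome 3, 49895422 to 49907339, minus strand), had 65.4 and 50.8 CPM in MYC cells, against 0 and 1.22 CPM in Zab cells. With 1 tag in the Zab libraries together and 134 in the MYC libraries, the ratio was 87.0, with a 95% counting interval from 15.3 to 3463. EPHA8, an ephrin receptor, had 116.5 tags in MYC and 2 in Zab cells, a ratio of 38.0 (10.3 to 317). SPRR2D, a small proline-rich protein of the cornified envelope, had 60.5 and 1 tags (ratio 39.6, interval 6.85 to 1590), and CPLX1, a complexin of synaptic vesicle release, 51 and 2 (16.6, interval 4.36 to 140.4). CCDC58, a mitochondrial protein, had 53.5 and 3 tags (11.7, interval 3.79 to 58.5). These counting intervals cover counting error only. The fitted difference of CCDC58, 2.88, was 2.16 without Zab replicate 1 and 3.63 without Zab replicate 2.

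GABRA5, a subunit of the GABA-A receptor, had 57.9 and 53.1 CPM in MYC cells, against 3.59 and 3.06 CPM in Zab cells. RGS16, a regulator of G-protein signalling, had 108 and 116 CPM in MYC cells, against 12.2 and 13.5 CPM in Zab cells. KLHL21, an adaptor of a CUL3 ubiquitin ligase, had 70.0 and 72.2 CPM in MYC cells, against 7.17 and 8.57 CPM in Zab cells. The difference was 10.8-fold for GABRA5 (log2 3.43 ± 0.34), 7.70-fold for RGS16 (log2 2.94 ± 0.30) and 7.42-fold for KLHL21 (log2 2.89 ± 0.29). SLCO5A1, a solute carrier, and HES7, a Notch-pathway repressor, followed with log2 differences of 2.79 and 2.79. All 10 stood at low levels in WT cells too, from 0 to 13.9 CPM per library.

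Lower in MYC cells were, apart from ADAR, mostly genes induced by interferon. ISG15, a ubiquitin-like modifier (chromosome 1, 948877 to 949919, plus strand), had 16.4 and 28.9 CPM in MYC cells, against 845 and 906 CPM in Zab cells (log2 difference -5.20 ± 0.18, adjusted p = 8.20e-39), a 36.8-fold difference. IFI6, an interferon-induced membrane protein, had 2.80 and 2.78 CPM in MYC cells, against 118 and 118 CPM in Zab cells (log2 -4.65 ± 0.40, 25.1-fold). IFIT1, which binds viral RNA lacking cap methylation, had 0.5 tags in the MYC libraries together and 114 in the Zab libraries. PARP10, a mono-ADP-ribosyltransferase, SLFN5, a Schlafen family protein, and HELZ2, a helicase-like coactivator, had log2 differences of -4.26, -3.91 and -3.81. MMP9, a gelatinase of the extracellular matrix, was the exception in kind, with 0.5 tags in MYC and 45.5 in Zab cells. Counts of 0.5 tags follow from taking 2 steps of the deposited values as 1 tag, which is an assumption.

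Genes for making ribosomes were higher in MYC cells with few exceptions. In the ribosome biogenesis list all 83 members were tested, 75 were higher and 0 lower, with a median log2 difference of 1.06, against -0.03 over all tested genes. The largest differences were in LYAR, a nucleolar growth regulator, with 189 and 204 CPM in MYC cells, against 41.6 and 44.1 CPM in Zab cells, and in RRP9, a U3 snoRNP protein, with 215 and 199.5 CPM in MYC cells, against 55.2 and 49.6 CPM in Zab cells. NOLC1, the nucleolar phosphoprotein Nopp140, had 559 and 584 CPM in MYC cells, against 158 and 152 CPM in Zab cells (log2 difference 1.86 ± 0.10, adjusted p = 4.45e-26). RRP1, of large-subunit assembly, had 51.8 and 48.0 CPM in MYC cells, against 8.61 and 15.3 CPM in Zab cells. The remaining 8 members, among them NOL6 and WDR46 (log2 0.35 and -0.31), did not pass the test.

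MYC core targets, genes long known to be bound and raised by MYC, were higher in 44 of 55 tested members and lower in 0 (2 more were not tested), with a median log2 difference of 0.99. With library totals in place of TMM, 44 were higher and 2 lower. The list shares 37 genes with the other lists. ODC1, the enzyme that sets the pace of polyamine synthesis, had 2315 and 2263 CPM in MYC cells, against 686 and 658 CPM in Zab cells (log2 difference 1.76 ± 0.05, adjusted p = 1.07e-42). NCL, nucleolin, had 799 and 842 CPM in MYC cells, against 265 and 260.1 CPM in Zab cells (log2 1.63 ± 0.08), and NPM1, nucleophosmin, had 815 and 904 CPM in MYC cells, against 374 and 410.0 CPM in Zab cells (log2 1.13 ± 0.07). SRM, spermidine synthase, had 2853 and 2910.0 CPM in MYC cells, against 1606 and 1647 CPM in Zab cells (log2 0.82 ± 0.04), with WT cells at 649.8 and 669.6 CPM, so that Zab cells stood above WT cells as well. Members that were not called included CDK4, a G1 kinase, with 144 and 143 CPM in MYC cells, against 163 and 158 CPM in Zab cells (log2 difference -0.16 ± 0.13, adjusted p = 0.3).

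RNA polymerases I and III, which transcribe ribosomal RNA, tRNA and 5S RNA, were higher in 19 of 32 tested genes and lower in 1, median log2 0.60. The deposited scale gave 26 higher and 0 lower. POLR3G, one of 2 alternative subunits of polymerase III, had 62.6 and 61.9 CPM in MYC cells, against 11.5 and 7.34 CPM in Zab cells (log2 difference 2.52 ± 0.32, adjusted p = 6.79e-10). Its alternative, POLR3GL, was the 1 lower member, with 2.80 and 3.96 CPM in MYC cells, against 12.2 and 8.57 CPM in Zab cells (log2 difference -1.19 ± 0.47, adjusted p = 0.0287), but that call ended without MYC replicate 1, MYC replicate 2 or Zab replicate 1. POLR3K, another polymerase III subunit, and CD3EAP, a polymerase I subunit, had log2 differences of 1.47 and 1.41. POLR3GL, as the other single exceptions to a list's direction named below, was picked after its value was seen.

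Cytosolic ribosomal proteins differed little and in both directions. Of 78 tested, 44 were higher and 13 lower in MYC cells, none by as much as 2-fold, with a median log2 difference of 0.18. The 13 lower became 8 with RLE scaling, 18 with library totals and 0 on the deposited scale, where 75 were higher, and 7 when MYC replicate 1, MYC replicate 2, Zab replicate 1 or Zab+MYC replicate 2 was left out. RPL5, which carries 5S RNA into the large subunit, had 3458 and 3493 CPM in MYC cells, against 2383 and 2340.0 CPM in Zab cells (log2 0.56 ± 0.04). RPL14, another large-subunit protein, had a log2 difference of 0.56. RPL28 had 1203 and 1164 CPM in MYC cells, against 1815 and 1663 CPM in Zab cells (log2 -0.55 ± 0.05), and its call ended on the deposited scale (log2 -0.07, adjusted p = 0.232). Processed pseudogenes of these genes are near-identical to them, so single values are uncertain. Translation factors and tRNA synthetases were higher in 31 of 57 members and lower in 4, median 0.35. EIF1AX, of start-codon scanning, had 143 and 127 CPM in MYC cells, against 23.7 and 53.9 CPM in Zab cells. EIF3J, of the eIF3 complex, and EIF2B3, of the exchange factor eIF2B, had log2 differences of 1.84 and 1.31. The 4 lower members were the tRNA synthetases AARS1, SARS1, QARS1 and CARS1 (log2 -0.78 to -0.33), 1 of which was called lower on the deposited scale.

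The mitochondrial ribosome was higher in 53 of 77 members and lower in 1, MRPL53, with a median log2 difference of 0.65. On the deposited scale 72 were higher and 0 lower. MRPS2, of its small subunit, had 378 and 380.3 CPM in MYC cells, against 126 and 103 CPM in Zab cells (log2 difference 1.71 ± 0.11, adjusted p = 1.13e-21), and MRPL50 and MRPS35 had log2 differences of 1.61 and 1.57. Nuclear genes of oxidative phosphorylation were higher in 43 of 74 tested members and lower in 8, median 0.37, with 64 and 0 on the deposited scale and 5 lower without Zab replicate 1. CYCS, cytochrome c, had 247 and 220.1 CPM in MYC cells, against 81.0 and 76.5 CPM in Zab cells (log2 1.54 ± 0.13). SDHB, of complex II, had 646 and 641 CPM in MYC cells, against 325 and 299.9 CPM in Zab cells (log2 1.04 ± 0.08), and NDUFAB1, the mitochondrial acyl carrier protein, a log2 difference of 0.98.

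Chaperones, which fold newly made proteins, were higher in 35 of 39 members and lower in 0, with a median log2 difference of 0.79. DNAJC2, a ribosome-associated J protein, had 628 and 671 CPM in MYC cells, against 142 and 159 CPM in Zab cells (log2 difference 2.10 ± 0.10, adjusted p = 1.35e-29). FKBP4, an HSP90 co-chaperone, had 1347 and 1373 CPM in MYC cells, against 449.7 and 449 CPM in Zab cells (log2 1.59 ± 0.07), and HSPA1A, an inducible HSP70, had 192 and 228 CPM in MYC cells, against 70.3 and 67.3 CPM in Zab cells (log2 1.57 ± 0.15). HSPA1A and HSPA1B are near-identical, so reads of the 2 genes may be exchanged. HSPD1, the mitochondrial chaperonin whose promoter is shown above, had 1735 and 1815 CPM in MYC cells, against 699 and 693 CPM in Zab cells (log2 1.35 ± 0.06).

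Nucleotide and polyamine synthesis was higher in 20 of 43 tested genes and lower in 2, median 0.27, with 34 and 0 on the deposited scale. The lower ones were 0 without Zab replicate 1 and 1 without MYC replicate 2 or Zab+MYC replicate 2. AK4, a mitochondrial adenylate kinase, had 156 and 128 CPM in MYC cells, against 35.9 and 23.9 CPM in Zab cells (log2 2.20 ± 0.20), and PPAT, which opens purine synthesis, had 116 and 104 CPM in MYC cells, against 44.5 and 25.7 CPM in Zab cells (log2 1.64 ± 0.21). TYMS, of thymidylate synthesis, was not called (log2 -0.11). Among glycolysis and hypoxia genes 13 of 28 were higher (46.4%) and 8 lower (28.6%), against 24.1% and 26.8% of all tested genes. The lower share is thus near that of all genes. On the deposited scale 18 were higher and 4 lower. SLC16A1, a lactate and pyruvate transporter, had 118 and 101 CPM in MYC cells, against 25.1 and 22.6 CPM in Zab cells (log2 2.10 ± 0.23). SLC2A3, a glucose transporter, and ENO2, an enolase, were lower (log2 -1.74 and -1.36).

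**Figure D3:**
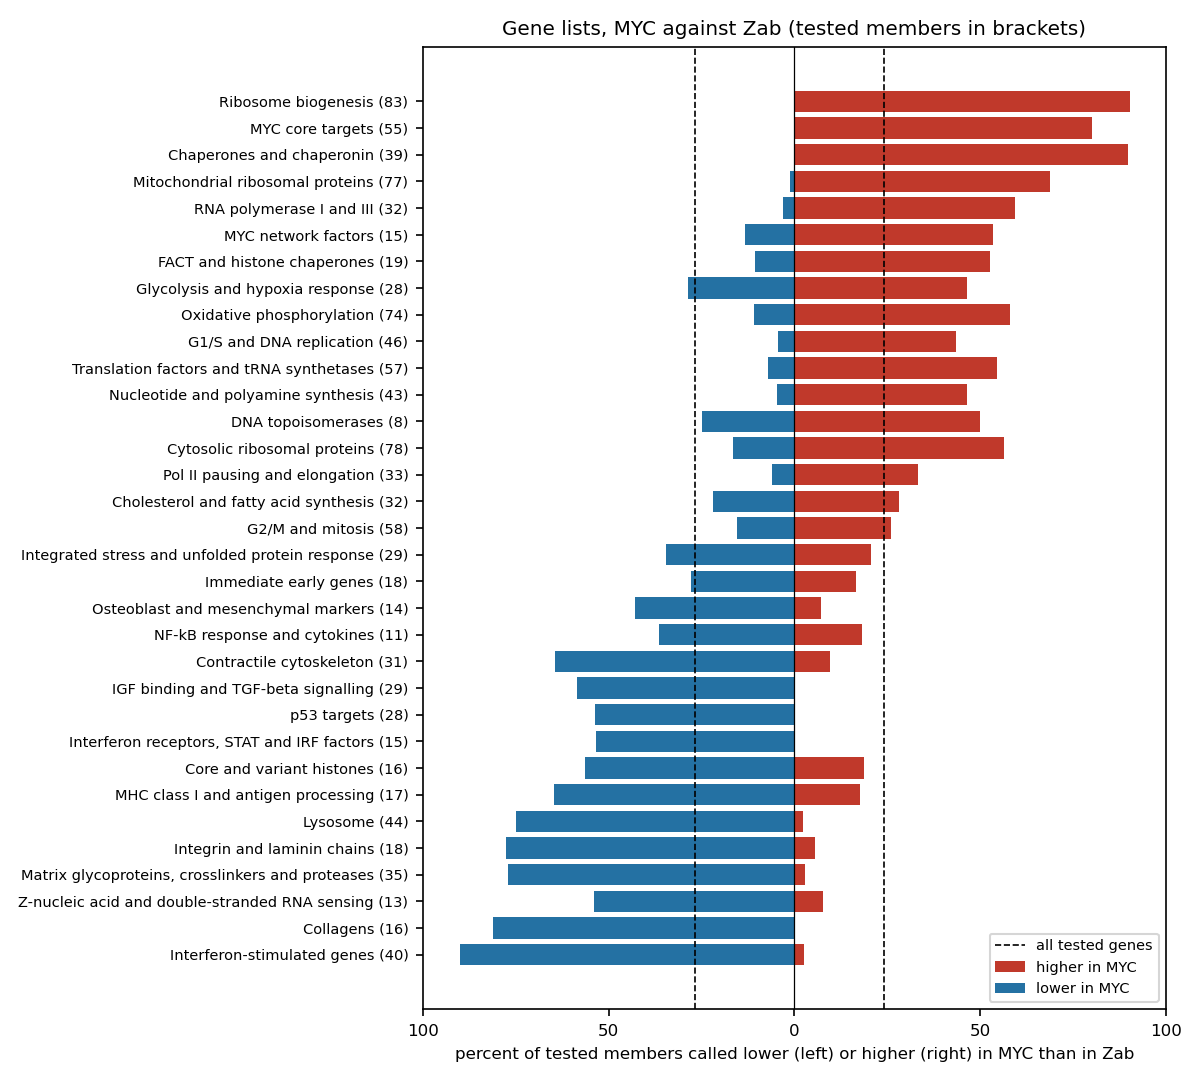
Percent of the tested members of each gene list called higher (red, right) or lower (blue, left) in MYC than in Zab cells, with the number tested in brackets and lists ordered by their median log2 difference. Dashed lines mark the shares among all 9673 tested genes, 24.1% higher and 26.8% lower. Ribosome biogenesis (90.4% higher) and interferon-stimulated genes (90.0% lower) lie at the 2 ends.

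Interferon-stimulated genes formed the largest contrast in the other direction. Of 61 listed genes 40 were tested, of which 36 were lower in MYC cells, 33 of them at least 2-fold, and 1 was higher, with a median log2 difference of -2.46. On the deposited scale 31 were lower and 2 higher. The summed level of the 61 genes was 1559 and 1538 CPM in MYC cells, against 5318 and 5269 CPM in Zab cells, 1618 and 1650.0 CPM in Zab+MYC cells and 1758 and 1695 CPM in WT cells. The sum was thus high in Zab cells and of similar size in the other 3 groups, lowest in MYC cells. A sum is weighted to abundant genes. The median tested member was below WT in MYC cells (log2 difference from WT -0.55). The 21 members too low to be tested had 44.5 tags in the MYC libraries and 152 in the Zab libraries, or 19.1 and 100.4 CPM in all, and 18 of them had a higher CPM in Zab cells, 1 in MYC cells and 2 had none in either.

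The OAS enzymes make 2′-5′ oligoadenylates on double-stranded RNA, which activate RNase L. OAS3 had 3.27 and 3.17 CPM in MYC cells, against 73.2 and 70.4 CPM in Zab cells (log2 difference -3.82 ± 0.40, adjusted p = 6.31e-13), with Zab+MYC cells at 4.38 and 2.83 CPM and WT cells at 5.68 and 5.30 CPM. OAS2 had 1 tag in the MYC libraries and 50 in the Zab libraries, a Zab to MYC ratio of 77.0 (95% counting interval 13.2 to 3101). OAS1 had 3 and 55.5 tags (ratio 28.7, interval 9.34 to 144), and OASL, a catalytically inactive relative, 1 and 31 (47.7, interval 7.96 to 1945). OAS1 was not called by DESeq2 (adjusted p = 0.0814), and its log2 difference of -3.71 was -4.28 without MYC replicate 2 and -3.12 without MYC replicate 1. All 4 genes were at 6.31 CPM or lower in every library outside Zab cells. The paralogs are similar in sequence, so reads may be shared among them.

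The exception was IFI30, a lysosomal thiol reductase that responds to interferon gamma, with 268 and 253 CPM in MYC cells, against 179 and 175 CPM in Zab cells (log2 difference 0.55 ± 0.11, adjusted p = 3.45e-05). LGALS3BP, a secreted glycoprotein, had 139 and 111 CPM in MYC cells, against 723 and 695 CPM in Zab cells (log2 -2.49 ± 0.09), with 402 and 401 CPM in WT cells, and lay below WT in MYC cells and above it in Zab cells. IFITM3, which blocks virus entry, had 268 and 312 CPM in MYC cells, against 860.0 and 833 CPM in Zab cells (log2 -1.54 ± 0.09). LAP3, TRIM25 and UBE2L6 were not called (log2 0.04, -0.09 and -0.47).

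**Figure D4:**
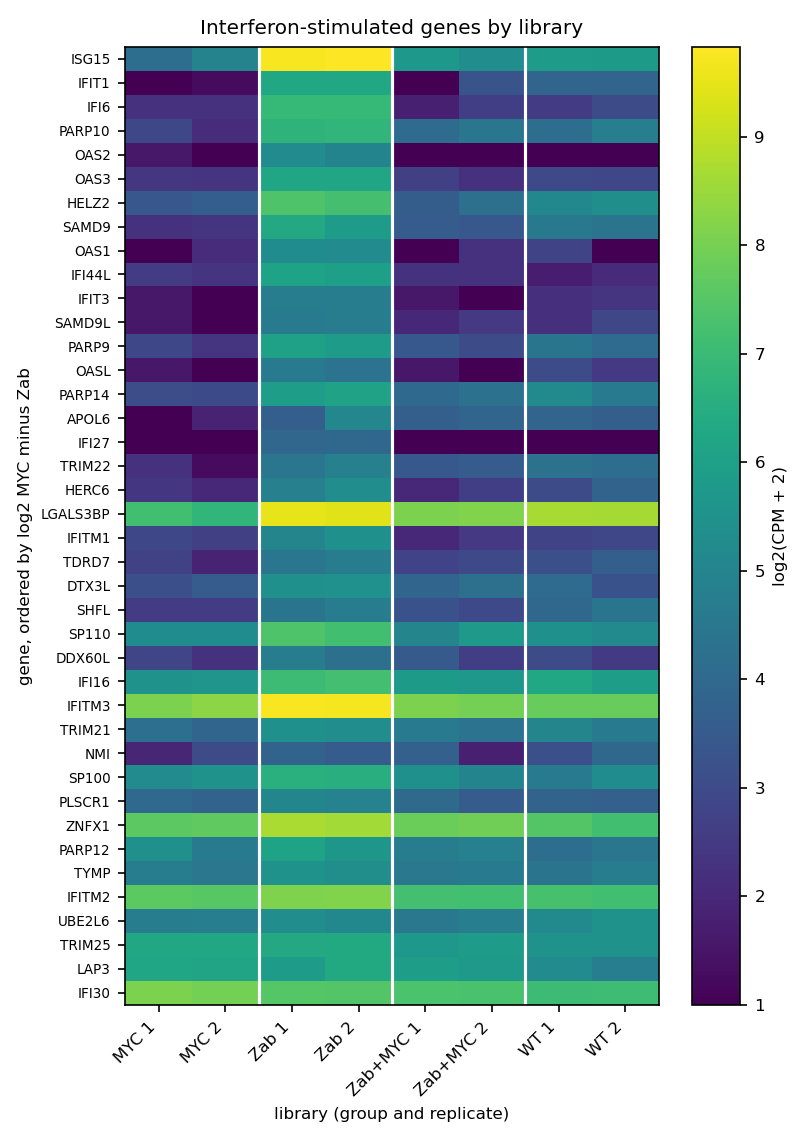
Expression of the 40 tested interferon-stimulated genes as log2(CPM + 2) in each of the 8 libraries (columns, grouped as MYC, Zab, Zab+MYC and WT), ordered from the largest decrease in MYC relative to Zab cells at the top to IFI30 at the bottom. The 2 Zab libraries are brighter than the other 6 for most genes in the upper part.

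Among sensors of Z-nucleic acids and double-stranded RNA, 7 of 13 tested genes were lower in MYC cells and 1 higher, median -1.32. ADAR is 1 of the 7, and its value does not separate Zab from the endogenous gene. Of the 20 members, 4 are also in other lists. The deposited scale gave 7 lower and 3 higher. DDX58, which encodes RIG-I, had 7.94 and 4.36 CPM in MYC cells, against 72.5 and 89.3 CPM in Zab cells (log2 difference -3.37 ± 0.33, adjusted p = 3.01e-14). IFIH1, which encodes MDA5, did not pass the filter and had 1 tag in MYC and 22 in Zab cells (ratio 33.9, interval 5.48 to 1398). EIF2AK2, which encodes PKR, had 40.2 and 55.1 CPM in MYC cells, against 160.0 and 129.7 CPM in Zab cells (log2 -1.57 ± 0.18). ZBP1 had 0 tags in all 4 libraries, which allows at most 1.29 CPM in MYC and 1.98 CPM in Zab cells when 3 tags over the group are taken as the limit. MLKL, the executioner of necroptosis, was the 1 higher gene, with 47.2 and 42.4 CPM in MYC cells, against 21.5 and 14.7 CPM in Zab cells (log2 difference 1.24 ± 0.30, adjusted p = 4.31e-04). Without Zab replicate 1, 2 genes of the list were higher.

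The factors that carry the interferon signal differed in part. Of 15 tested receptors, STAT and IRF factors 8 were lower in MYC cells and 0 higher, median log2 -0.62. STAT2 had 3.74 and 8.72 CPM in MYC cells, against 33.7 and 32.4 CPM in Zab cells (log2 difference -2.16 ± 0.33, adjusted p = 8.94e-08), and IRF9 had 1.87 and 5.55 CPM in MYC cells, against 12.9 and 22.6 CPM in Zab cells (log2 -1.83 ± 0.43). For STAT2, WT cells stood at 30.9 and 39.2 CPM, at the level of Zab cells. The type I receptor subunits IFNAR1 and IFNAR2 were not called (log2 0.29 and -0.82). On the deposited scale 6 of the 15 were lower and 1 higher.

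Antigen presentation by MHC class I was lower in 11 of 17 tested genes and higher in 3, or in 1 without MYC replicate 1, with a median of -0.71. TAPBP, tapasin, had 77.5 and 57.9 CPM in MYC cells, against 223 and 200.1 CPM in Zab cells (log2 -1.63 ± 0.13), TAP1, a peptide transporter subunit, 33.6 and 31.3 CPM in MYC cells, against 85.4 and 104 CPM in Zab cells (log2 -1.48 ± 0.20), and PSMB8, an immunoproteasome subunit, 40.2 and 25.8 CPM in MYC cells, against 88.2 and 81.4 CPM in Zab cells (log2 -1.34 ± 0.23). The class I heavy chains HLA-C and HLA-B went different ways. HLA-C had 273 and 269 CPM in MYC cells, against 474 and 529 CPM in Zab cells (log2 -0.88 ± 0.08), and HLA-B had 493 and 476 CPM in MYC cells, against 410.3 and 427 CPM in Zab cells (log2 0.21 ± 0.08). The HLA-B call ended with library totals, with DESeq2, when thinned and without MYC replicate 1 (adjusted p = 0.0736). HLA genes are near-identical in parts, so their split is uncertain. B2M, the light chain, had 176 and 188 CPM in MYC cells, against 248 and 265 CPM in Zab cells (log2 -0.49 ± 0.12) and no call on the deposited scale (log2 -0.01). TAP2, the partner of TAP1, was higher in MYC cells (log2 0.73 ± 0.22), but DESeq2 called 0 members of the list higher. Library totals gave 1 higher member, and the deposited scale 4 higher and 7 lower.

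NF-kB response and cytokine genes were lower in 4 of 11 tested members (36.4%) and higher in 2 (18.2%), against 26.8% and 24.1% of all tested genes. With 11 genes tested, such shares are no result about the list. The number higher was smaller without MYC replicate 1 or Zab replicate 1. The median was -0.40, and 0.04 with the deposited values, where 5 were higher and 3 lower. IL32, a proinflammatory cytokine, had 15.9 and 19.4 CPM in MYC cells, against 79.6 and 58.8 CPM in Zab cells (log2 -1.85 ± 0.27), and TNFAIP2 and IL11 had log2 differences of -1.06 and -1.27, the last with no call by DESeq2 (adjusted p = 0.0626). NFKB1, the p105 and p50 subunit, was higher in MYC cells with 121 and 121 CPM in MYC cells, against 72.5 and 53.2 CPM in Zab cells (log2 0.94 ± 0.18).

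The extracellular matrix was lower in MYC cells. Of 16 tested collagens 13 were lower and 0 higher, 11 of them at least 2-fold, with a median log2 difference of -1.35, and 12 were lower on the deposited scale. COL1A1, a chain of type I collagen (chromosome 17, 48261457 to 48279000, minus strand), had 109 and 122 CPM in MYC cells, against 827 and 776 CPM in Zab cells (log2 difference -2.77 ± 0.08, adjusted p = 1.21e-42), a 6.83-fold difference. COL5A1 had 5.14 and 4.36 CPM in MYC cells, against 86.8 and 71.0 CPM in Zab cells (log2 -3.58 ± 0.28), and COL3A1 had 2.80 and 5.95 CPM in MYC cells, against 55.2 and 42.8 CPM in Zab cells (log2 -3.04 ± 0.32). COL13A1, a membrane collagen, had a log2 difference of -2.78, or -3.34 without MYC replicate 1 and -2.17 without MYC replicate 2. For COL1A1, WT cells stood at 1094 and 1187 CPM, and for COL5A1 at 105 and 102 CPM, so that Zab cells lay nearer to WT than MYC cells did.

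Matrix glycoproteins, crosslinkers and proteases were lower in 27 of 35 tested genes and higher in 1, median -1.10. On the deposited scale 20 were lower and 2 higher. FN1, fibronectin, had 43.0 and 44.4 CPM in MYC cells, against 177 and 166 CPM in Zab cells (log2 -1.92 ± 0.13), SPARC, osteonectin, 378 and 385 CPM in MYC cells, against 1237 and 1351 CPM in Zab cells (log2 -1.75 ± 0.06), and HAPLN1, a hyaluronan link protein, 12.1 and 7.14 CPM in MYC cells, against 81.0 and 95.5 CPM in Zab cells (log2 -2.98 ± 0.22). LOXL4, a lysyl oxidase, had 2 tags in MYC and 46 in Zab cells (ratio 35.4, interval 9.26 to 301). MMP14, a membrane-bound metalloprotease, had a log2 difference of -2.96, or -3.60 without MYC replicate 2 and -2.30 without MYC replicate 1. TIMP3, a metalloprotease inhibitor, was the 1 higher gene, with 39.2 and 39.3 CPM in MYC cells, against 14.3 and 15.9 CPM in Zab cells (log2 difference 1.27 ± 0.25, adjusted p = 1.33e-05). WT cells, at 38.5 and 54.6 CPM, were like MYC cells in TIMP3.

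Integrin and laminin chains, which tie cells to the matrix, were lower in 14 of 18 tested genes and higher in 1, median -0.95. The deposited scale gave 10 lower and 3 higher. ITGA3 had 85.0 and 89.6 CPM in MYC cells, against 410.3 and 453 CPM in Zab cells (log2 difference -2.28 ± 0.10, adjusted p = 1.13e-30), LAMB2 29.9 and 27.8 CPM in MYC cells, against 136 and 152 CPM in Zab cells (log2 -2.24 ± 0.15) and LAMA5 43.9 and 42.0 CPM in MYC cells, against 202 and 182 CPM in Zab cells (log2 -2.11 ± 0.14). ITGA4, which pairs with ITGB1 as a fibronectin and VCAM1 receptor, was higher in MYC cells with 18.7 and 22.6 CPM in MYC cells, against 7.17 and 4.90 CPM in Zab cells (log2 difference 1.5 ± 0.41, adjusted p = 0.00143). In the list of IGF binding and TGF-beta signalling 17 of 29 tested genes were lower and 0 higher, median -0.48, against 9 lower and 4 higher on the deposited scale, and without Zab replicate 1 2 genes were higher. IGFBP5, an IGF-binding protein of bone, had 15.9 and 11.9 CPM in MYC cells, against 137 and 107 CPM in Zab cells (log2 difference -2.97 ± 0.19, adjusted p = 9.13e-23). WT cells had 901 and 894 CPM, far above both. LTBP2, a matrix relative of the TGF-beta carriers, and IGFBP6 had log2 differences of -2.49 and -1.82.

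Contractile cytoskeleton genes were lower in 20 of 31 tested members and higher in 3, with a median of -0.45, or 0.02 with the deposited values. The higher ones were 5 without MYC replicate 1, Zab+MYC replicate 1 or WT replicate 1 and 6 without Zab+MYC replicate 2. MYL6, a myosin light chain, had 48.6 and 49.2 CPM in MYC cells, against 232 and 253 CPM in Zab cells (log2 -2.26 ± 0.12), and TGFB1I1, a focal adhesion protein, had 6.54 and 7.14 CPM in MYC cells, against 34.4 and 42.2 CPM in Zab cells (log2 -2.18 ± 0.30). ACTA2, smooth muscle actin, had 2.33 and 1.59 CPM in MYC cells, against 14.3 and 17.1 CPM in Zab cells (log2 -2.17 ± 0.44). ACTG1, a cytoplasmic actin, was higher in MYC cells (log2 0.99) and ACTB, the other, was not called (0.11).

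Lysosomal genes were lower in 33 of 44 tested members and higher in 1, with a median log2 difference of -0.91. On the deposited scale 22 were lower and 3 higher. NPC2, which binds cholesterol in the lysosome (chromosome 14, 74946638 to 74960215, minus strand), had 216 and 221 CPM in MYC cells, against 776 and 776 CPM in Zab cells (log2 difference -1.82 ± 0.07, adjusted p = 2.79e-34). GAA, acid alpha-glucosidase, had 7.47 and 17.1 CPM in MYC cells, against 42.3 and 52.0 CPM in Zab cells (log2 -1.86 ± 0.29), and IDUA, which degrades glycosaminoglycans, had 0.934 and 3.96 CPM in MYC cells, against 19.4 and 14.7 CPM in Zab cells (log2 -2.17 ± 0.44). CTSC, the dipeptidyl peptidase cathepsin C, was the 1 higher gene, with 181 and 205 CPM in MYC cells, against 117 and 98.5 CPM in Zab cells (log2 difference 0.83 ± 0.14, adjusted p = 3.85e-07), and 2 were higher without MYC replicate 2 or either Zab+MYC library. TFEB and TFE3, transcription factors of lysosomal genes, were lower too (log2 -1.21 and -1.05). For NPC2, WT cells had 895 and 921 CPM, closer to Zab than to MYC cells.

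Cell-cycle genes were next. Of 46 tested G1/S and replication genes 20 were higher in MYC cells (43.5%) and 2 lower, median 0.36, with 0 lower without MYC replicate 2 and 1 without MYC replicate 1 or Zab replicate 1. CCND1, cyclin D1, had 545 and 558 CPM in MYC cells, against 189 and 215 CPM in Zab cells (log2 difference 1.44 ± 0.09, adjusted p = 1.58e-23), CCNE1, cyclin E1, 108 and 102 CPM in MYC cells, against 33.0 and 37.9 CPM in Zab cells (log2 1.51 ± 0.18), and CDC25A, an activating phosphatase of CDKs, 29.9 and 28.6 CPM in MYC cells, against 7.17 and 8.57 CPM in Zab cells (log2 1.67 ± 0.36). PCNA, the replication clamp, had 249.9 and 226 CPM in MYC cells, against 250.3 and 228 CPM in Zab cells (log2 difference -0.01 ± 0.10, adjusted p = 0.944). Of the 46 G1/S and replication genes, 37 were higher and 0 lower on the deposited scale, with a median of 0.83. Of 58 G2/M and mitosis genes 15 were higher, 9 lower and 34 not called, with a median of 0.06, close to all tested genes in the higher direction (25.9% against 24.1%). The 9 lower became 5 without MYC replicate 1 and 2 on the deposited scale, where 37 were higher. BUB1B and MAD2L1, of the spindle checkpoint, were higher (log2 1.28 and 1.16). CDC25C, a mitotic phosphatase, was lower (log2 -1.61, or -2.18 without MYC replicate 2 and -0.97 without MYC replicate 1).

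p53 targets were lower in 15 of 28 tested genes and higher in 0, median -0.60, while 8 were lower and 5 higher on the deposited scale. Without Zab replicate 1, 2 were higher, and without either Zab+MYC library 1 was. CDKN1A, the p21 inhibitor of CDKs, had 166 and 170.5 CPM in MYC cells, against 513 and 502 CPM in Zab cells (log2 difference -1.58 ± 0.09, adjusted p = 1.30e-25), with 381 and 356 CPM in Zab+MYC cells and 265 and 273 CPM in WT cells. TP53I3, a quinone oxidoreductase, had 13.5 and 9.91 CPM in MYC cells, against 112 and 116 CPM in Zab cells (log2 difference -3.09 ± 0.19, adjusted p = 5.26e-23), and XPC, of DNA repair, 46.2 and 41.2 CPM in MYC cells, against 192 and 179.9 CPM in Zab cells (log2 -2.04 ± 0.15). FUCA1, a lysosomal fucosidase, had a log2 difference of -2.15. The order of groups was not the same for these genes. CDKN1A was above WT in Zab cells and below WT in MYC cells, whereas TP53I3 in Zab cells was near the WT level of 118 and 129.8 CPM.

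Of 18 tested immediate early genes 5 were lower in MYC cells (27.8%) and 3 higher (16.7%), against 26.8% and 24.1% of all tested genes, with a median of -0.27, or 0.20 on the deposited scale. Shares so near to those of all genes are no result about the list. EGR1, a growth-factor-induced zinc finger factor, had 22.4 and 15.5 CPM in MYC cells, against 81.8 and 118 CPM in Zab cells (log2 -2.28 ± 0.21), and FOSL2, an AP-1 subunit, 12.1 and 9.91 CPM in MYC cells, against 38.7 and 44.1 CPM in Zab cells (log2 -1.74 ± 0.26). DUSP5, an ERK phosphatase, had 30 tags in MYC and 3 in Zab cells (ratio 6.49, interval 2.02 to 33.2), and its log2 difference of 2.14 was 1.42 without Zab replicate 1 and 2.90 without Zab replicate 2. SRF, the serum response factor, was higher in MYC cells with 232 and 249 CPM in MYC cells, against 107 and 115 CPM in Zab cells (log2 1.10 ± 0.13). In the list of the integrated stress and unfolded protein response 10 of 29 tested genes were lower (34.5%) and 6 higher (20.7%), again near the shares of all tested genes, and 6 were lower without Zab replicate 2. With the deposited values 2 were lower and 11 higher. ATF5 and TRIB3, targets of ATF4, were higher (log2 1.32 and 1.21), and PPP1R15A, which restores translation after stress, was lower (-1.15). The median of that list, -0.08, was 0.37 on the deposited scale.

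Of 32 tested cholesterol and fatty acid synthesis genes 9 were higher in MYC cells (28.1%) and 7 lower (21.9%), near the 24.1% and 26.8% of all tested genes. With the deposited values 19 were higher and 6 lower. SCD and FASN, which make fatty acids, were higher, SCD with 437 and 418 CPM in MYC cells, against 163 and 144 CPM in Zab cells (log2 1.47 ± 0.10) and FASN with 856 and 893 CPM in MYC cells, against 468 and 408 CPM in Zab cells (log2 1.0 ± 0.07). FADS2, a fatty acid desaturase, was lower with 29.0 and 36.9 CPM in MYC cells, against 146 and 143 CPM in Zab cells (log2 -2.08 ± 0.15). MVK and HSD17B7, of cholesterol synthesis, and SREBF2, its transcription factor, were lower (log2 -1.58, -1.60 and -1.31).

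Chromatin and transcription factors came next, since the series title names FACT, the histone chaperone made of SUPT16H and SSRP1. SUPT16H had 115 and 118 CPM in MYC cells, against 82.5 and 100.4 CPM in Zab cells and missed the threshold (log2 difference 0.35 ± 0.15, adjusted p = 0.0516), although 15 of 24 alternatives called it higher in MYC cells. Among these were RLE scaling (adjusted p = 0.033), edgeR (0.033), the deposited scale and the fits with replicate number as a block (0.0483 in all 8 libraries and 0.0416 in the 4 compared). DESeq2 did not call it (0.229). SSRP1 had 301 and 291 CPM in MYC cells, against 193 and 184 CPM in Zab cells (log2 difference 0.64 ± 0.10, adjusted p = 2.67e-07). In the whole list of histone chaperones 10 of 19 tested genes were higher and 2 lower, or 1 without MYC replicate 1. The deposited scale gave 16 higher and 1 lower. SET, an inhibitor of histone acetylation, had 584 and 548 CPM in MYC cells, against 241 and 239 CPM in Zab cells (log2 1.23 ± 0.09), and ASF1B, which carries H3 and H4 during replication, had 25.2 and 25 CPM in MYC cells, against 83.9 and 97.3 CPM in Zab cells (log2 -1.77 ± 0.18).

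DNA topoisomerases and their repair enzymes were higher in 4 of 8 tested genes and lower in 2, and in 2 and 0 without MYC replicate 2. Without either Zab library 1 was lower. TOP1, which relaxes supercoils during transcription, had 118 and 128 CPM in MYC cells, against 76.0 and 70.4 CPM in Zab cells (log2 difference 0.74 ± 0.16, adjusted p = 9.37e-05), and TOP1MT, its mitochondrial relative, had a log2 difference of 1.23. TOP2A, of mitotic chromosomes, had 191 and 180.0 CPM in MYC cells, against 239.6 and 234 CPM in Zab cells (log2 difference -0.35 ± 0.10, adjusted p = 0.00211). The TOP2A call ended with DESeq2 (adjusted p = 0.0836) and without MYC replicate 2 (0.0812), and on the deposited scale the difference was 0.13. TDP1 and TDP2, which remove trapped topoisomerases, had log2 differences of -1.0 and 0.89, but neither was called by DESeq2 (0.163 and 0.278) nor without MYC replicate 2 (0.197 and 0.199) or Zab replicate 1 (0.0856 and 0.363). The topoisomerase list thus had 50% higher and 25% lower, against 24.1% and 26.8% of all tested genes. Its deposited values gave 5 higher and 0 lower. With 8 genes tested, such shares are no result about the list. Of 33 genes of Pol II pausing and elongation 11 were higher (33.3%) and 2 lower (6.06%), or 24 and 2 on the deposited scale. ELOA, elongin A, was at log2 1.06 and TCEA2 and AFF1 at -1.68 and -1.30. Histones were lower in 9 of 16 tested genes (56.25%) and higher in 3 (18.75%), or 8 and 6 on the deposited scale. H1-2, a linker histone, had 231 and 257 CPM in MYC cells, against 776 and 783 CPM in Zab cells (log2 -1.67 ± 0.07), H2BC21 and H2BC5 had log2 differences of -1.69 and -1.65, and replication-dependent histone genes are near-identical and their counts uncertain.

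Within the MYC network, MAX, the partner of MYC, had 156 and 142 CPM in MYC cells, against 68.9 and 66.7 CPM in Zab cells (log2 1.11 ± 0.16). MXI1, which competes with MYC for MAX, had 91.5 and 80.1 CPM in MYC cells, against 25.1 and 29.4 CPM in Zab cells (log2 1.59 ± 0.22). MXD4, of the same family, had 42.0 and 51.1 CPM in MYC cells, against 156 and 174 CPM in Zab cells (log2 difference -1.79 ± 0.15, adjusted p = 2.58e-17). These 2 antagonists thus went opposite ways. In the list, which includes MYC itself among the higher genes, 8 of 15 tested genes were higher and 2 lower. The other lower one was TRRAP (log2 -0.31 ± 0.13). The number lower was smaller when any library of MYC, Zab or Zab+MYC was left out.

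Zab+MYC cells carry both factors and lay between the 2 groups for most genes. Their place was read on the log2(CPM + 2) scale, with 0 at the Zab level and 1 at the MYC level. For the 768 genes at least 2-fold higher in MYC cells the median place was 0.63 (quartiles 0.53 and 0.74), and 604 of them (78.6%) lay nearer to MYC than to Zab cells. For the 1451 genes at least 2-fold lower in MYC cells it was 0.49 (quartiles 0.32 and 0.68). Zab+MYC cells lay outside the range of the 2 groups for 18 of the first set and 129 of the second. The 2 Zab+MYC libraries alone gave 0.63 and 0.64, and 0.49 and 0.49. The lists differed in place. Among members called at least 2-fold, the median was 0.82 for 33 interferon-stimulated genes and 0.77 for 11 collagens, 0.60 for 20 lysosomal genes and 0.58 for 46 ribosome biogenesis genes. It was 0.52 for 21 matrix genes, 0.31 for 9 contractile genes and 0.30 for 8 p53 targets. These differences between lists are descriptions and were not tested. Zab+MYC cells had less MYC mRNA than MYC cells and less ADAR mRNA than Zab cells, with places of 0.67 for MYC and 0.55 for ADAR, and the part of these doses in the places was not tested.

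**Figure D5:**
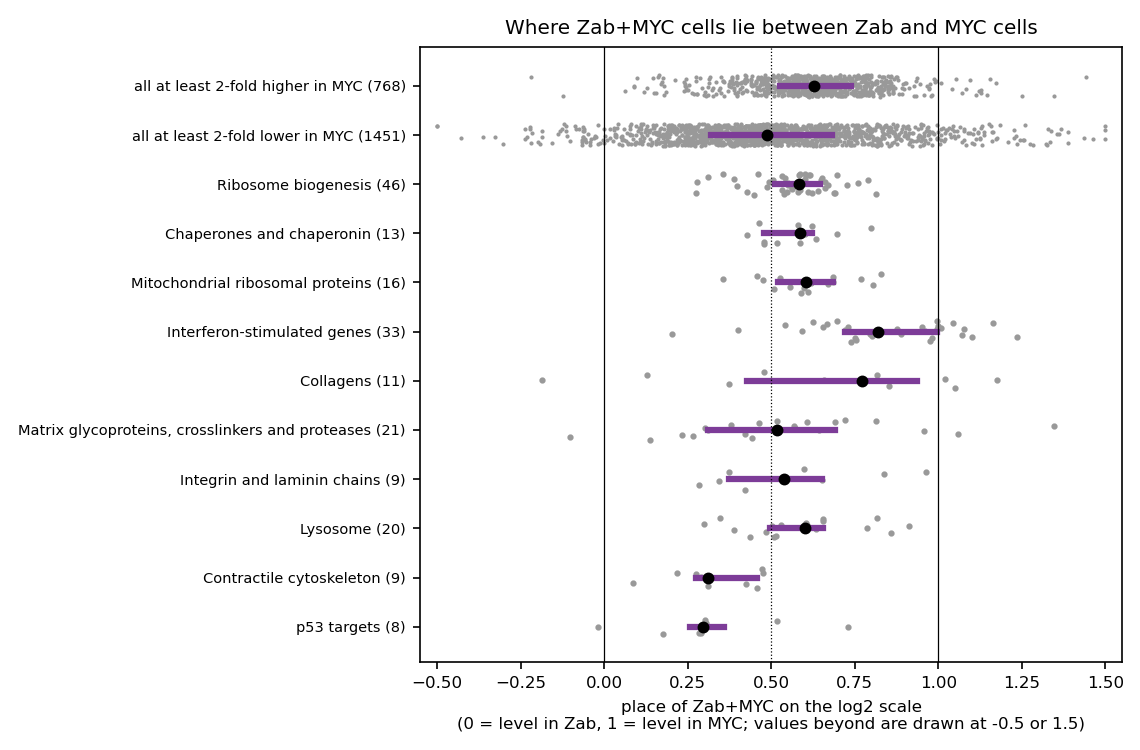
Place of Zab+MYC cells between Zab cells (0) and MYC cells (1) on the log2(CPM + 2) scale for each gene called at least 2-fold different, by list (grey points, 1 per gene), with the median (black) and the range between quartiles (purple). Interferon-stimulated genes and collagens lie nearer to the MYC end and p53 targets and contractile genes nearer to the Zab end.

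WT cells, which have neither factor, give a further level to set the 2 groups against. Of the 768 genes at least 2-fold higher in MYC cells, the WT mean was at or below both groups for 431, between them for 321 and at or above both for 16. Of the 1451 lower genes it was at or above both for 828, between for 605 and at or below both for 18. These are orders of means and not calls. By adjusted p under 0.05 in the same limma fit, only MYC cells differed from WT for 457 of the 768 genes. Both groups differed for 222, only Zab cells for 42 and neither for 47. Of the 1451 genes, only MYC cells differed from WT for 1004, both groups for 304, only Zab cells for 70 and neither for 73. Medians of lists against WT share the WT libraries and are given side by side. For interferon-stimulated genes the median log2 difference from WT was -0.55 in MYC cells and 1.64 in Zab cells, and for collagens -1.94 in MYC cells and -0.45 in Zab cells. For ribosome biogenesis it was 1.66 in MYC cells and 0.55 in Zab cells, and for lysosomal genes -1.13 in MYC cells and -0.15 in Zab cells. By these medians both groups stood above WT in ribosome biogenesis, MYC cells farther, and on opposite sides of WT in interferon-stimulated genes.

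Some defining markers of the labelled cell line were present and others were not. VIM, vimentin, had 4805 and 4940.0 CPM in MYC cells, against 6397 and 6757 CPM in Zab cells, and COL1A1 and SPARC, of osteoblasts, are given above. SP7, BGLAP, COL1A2, TWIST1 and SOST had 0 tags in all 4 libraries, and RUNX2, the osteoblast regulator, had 10.7 and 11.5 CPM in MYC cells, against 9.32 and 5.51 CPM in Zab cells (log2 difference 0.51 ± 0.39, adjusted p = 0.278). Of 24 osteoblast and mesenchymal markers 14 were tested, 6 lower and 1 higher in MYC cells, or 0 higher without MYC replicate 2 and 2 without either Zab+MYC library, with CDH11, osteoblast cadherin, at log2 -2.18. The median of these 14, -0.39, was 0.08 on the deposited scale. The summed level of the list was 6082 and 6289 CPM in MYC cells, against 9231 and 9683 CPM in Zab cells.

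Some epithelial markers were lower in MYC cells. Of 15, 5 were tested and 4 were lower, 2 without MYC replicate 1. KRT18, the highest of them, was not called, with 811 and 838 CPM in MYC cells, against 926 and 805 CPM in Zab cells (log2 -0.07). KRT8 had 271 and 297 CPM in MYC cells, against 769.6 and 723 CPM in Zab cells (log2 -1.39 ± 0.07) and KRT17 172 and 159 CPM in MYC cells, against 387 and 442 CPM in Zab cells (log2 -1.31 ± 0.08), and KRT7, also lower, lost its call with DESeq2, on the deposited scale, and without MYC replicate 1 or Zab replicate 2. The list summed to 1270.0 and 1309 CPM in MYC cells, against 2117 and 2008 CPM in Zab cells, but CDH1, CLDN3, ESRP1, GRHL2 and OVOL1 were at 0 in all 4 libraries. EPCAM, too low to test, had 2.80 and 3.17 CPM in MYC cells, against 1.44 and 0.612 CPM in Zab cells. CLDN7, also untested, had 4.67 and 2.38 CPM in MYC cells, against 2.87 and 1.22 CPM in Zab cells. Keratins are similar in sequence and their counts uncertain. The 10 leukocyte markers summed to 18.2 and 9.12 CPM in MYC cells, against 24.4 and 22 CPM in Zab cells, with CD3E, LYZ and ITGAM among those at 0 in all 4. CORO1A was the only one tested, and its lower call ended without MYC replicate 2 or Zab replicate 2. The 9 endothelial markers summed to 9.34 and 7.53 CPM in MYC cells, against 14.3 and 4.90 CPM in Zab cells, with CDH5 and KDR at 0.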

How the data were processed

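Per the labels' protocols, RNA was taken from U2OS cells with Trizol and made into libraries with a kit from Abclonal. The tools listed, per the submitters' processing notes, are HOMER 4.11.1, STAR (version not given in the sources used here) and Trim Galore 0.6.6, with the builds hg19 and dm6. Per the file headers, the authors counted tags in exons of hg19 RefSeq coding genes with HOMER's analyzeRepeats, keeping 1 transcript per gene. The deposited values are a signal, tags times 1 factor per library whose origin no source used here states. All values (100%) were whole multiples of 1 step within 0.1 step, and 2 steps were assumed to make 1 tag. Of the genes in the tables, 54.2% were counted on the same transcript in the 4 MYC and Zab libraries. No source used here states whether strand entered the counting, which leaves values of overlapping and antisense genes uncertain.

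Recovered tags were filtered with filterByExpr, scaled with TMM to CPM over all exon tags and taken to log2(CPM + 2), which understates differences of low genes. All 8 libraries entered 1 limma fit with its trend option, with 4 residual degrees of freedom and 67.2 more from the trend over genes, on which very small p-values rest. The test had been planned for counts, and limma replaced it once the values were seen to be a scaled signal. edgeR and DESeq2, on rounded tags, were alternatives, as were other scalings, filters, pseudocounts, thinning, a 2-fold null, replicate number as a block and each library left out. The step was tested on simulated data.

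Genes were named by a rule: the 10 largest called differences in each direction with at least 20 CPM in the higher group and groups that do not overlap, the 3 largest called members of each list with at least 10 CPM, and a set of pathway genes whatever their value. Some of the genes so picked are not reported here. The members and lists were chosen with earlier results of these data known. Motifs were counted in RefSeq promoters (GRCh38.p14, 250 bases before to 50 after the start), matched by symbol for 83.0% of tested genes. Gene coordinates are hg19. Fits ran in R 4.3.3 with limma 3.58.1, with the alternatives in DESeq2 1.42.0 and edgeR 4.0.16. Tables and plots were made in Python 3.11.15 with scipy 1.17.1, pandas 2.3.3, matplotlib 3.10.9 and numpy 2.4.6.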

Additional observations from a re-analysis of the deposited data

How the results depend on the processing

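Depth, 686992 to 1326170 exon tags per library, limits what can be seen of low genes, and the low spread between libraries of a group leaves variation between cultures unmeasured. Over the same 9673 genes limma called 4926, DESeq2 3107 (1512 lower) and limma against a null of 2-fold 529 (133 higher and 396 lower). A fit of only the 5199 testable genes with the same transcript in the 4 libraries called 2801 (1491 higher and 1310 lower). That last count is lower by construction, with 479 genes at least 2-fold higher and 682 at least 2-fold lower. On the deposited scale 4427 were called higher and 1352 lower, 2116 and 752 of them at least 2-fold, as that scale raises all log2 differences. For the other counts named here the cause was not tested. With single libraries left out, the calls ran from 3991 to 5089, from 1997 to 2518 higher and from 1994 to 2654 lower. At least 2-fold differences then ran from 792 to 911 higher and from 1325 to 1542 lower.

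The place of Zab+MYC cells was 0.65 for higher and 0.49 for lower genes with library totals, and 0.55 and 0.54 on the deposited scale, and ran from 0.62 to 0.64 and from 0.49 to 0.50 with single libraries left out. With only the 100 bases next to the start, 7.13% of the genes at least 2-fold higher held the E-box, 0.792% paired GAAA and 6.82% the CCAAT box. Among all tested genes the shares in that window were 4.53%, 0.871% and 10.1%. A shorter window lowers such shares by construction. The MYC minus Zab difference in exon share ran from 15.1 to 15.4 percentage points and that in the deposited sum from 139968 to 142570 with single libraries left out. The promoter check was void for genes at least 2-fold lower (79.0% matched) and for lysosomal genes (70.5%).

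Of the 132 tested genes that the naming rule picked, 120 kept their direction and their side of the threshold under all alternatives other than the 2-fold null, under which 51 lost their call. Among the others are B2M, CORO1A, HLA-B, IL11, KRT7, OAS1, RPL28, SUPT16H, TDP1, TDP2 and TOP2A. TOP2A reversed on the deposited scale (log2 0.13, adjusted p = 0.235). Deviations of same-numbered libraries correlated at -0.0226 to 0.0143. Libraries of a group differed by no more than counting noise, so this check cannot tell whether replicate numbers pair the samples. With the replicate block 4953 genes were called in all 8 libraries and 4797 in the 4 compared. Crossing the numbers, tried after seeing the data, gave 4897.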
